A study of Mus musculus with 18 samples.

Results

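The serine 5 phosphorylated RNA polymerase II landscape of adult mouse cerebral cortex was described from the 3 peak lists of the PolII_S5P antibody, 1 for each of 3 animals, on chromosomes 1 to 19. The lists held 4351, 19509 and 12526 peaks in animals 5, 7 and 9, or 36386 of the 488083 peaks that the 15 lists of the series held on these chromosomes. Every library came from cortex excised from wild-type C57BL/6J female mice aged 14 weeks and shipped frozen, and nothing differed between the animals in genotype or treatment. Chromatin of each animal was immunoprecipitated (ChIP-seq) with antibodies against PolII_S5P, the histone marks H3K27ac and H3K4me1, and the proteins MBD3 and TDG. An input sample of each animal was not analysed here. The tissue is a mixture of neurons, glia and vascular cells, so that a peak may come from any of them. The label cortex was not checked against marker genes, since no annotation on the build of the files was used.

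The largest subunit of RNA polymerase II ends in a tail of repeated short motifs. Serine 5 of these motifs is phosphorylated by the kinase of the general factor TFIIH as the polymerase leaves a promoter, and this form is known to be most abundant at transcription start sites and over the first part of genes. H3K27ac is known from active promoters and enhancers and H3K4me1 mainly from enhancers. MBD3 belongs to the NuRD complex, which remodels and deacetylates chromatin, and TDG is a DNA glycosylase that acts in active DNA demethylation. The question addressed was where the phosphorylated polymerase was called, how its peaks were arranged, and which of them the animals shared.

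The polymerase peaks were narrow. Their median width was 349, 387 and 363 bp in animals 5, 7 and 9, and a list covered 2.07, 10.3 and 5.91 Mb of the genome. The narrowest peaks measured 220, 224 and 223 bp, and 10% of the peaks of a list were wider than 821, 878 and 778 bp. The tail was long. Peaks of 1 kb and over made up 6.96%, 7.63% and 5.79% of a list and held 23.9%, 25.5% and 19.5% of its bases, and 59, 355 and 117 peaks reached 2 kb. The widest single peak of each list spanned 7957, 12853 and 10442 bp.

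Averaged over animals, the median width was 366 ± 19.2 bp for PolII_S5P and 622 ± 48.0 bp for H3K27ac (SD, n = 3 each), a difference of -255 bp. H3K4me1 averaged 485 ± 37.2 bp, a difference of -119 bp, and MBD3 averaged 429 ± 36.3 bp, a difference of -63 bp. TDG was the one narrower antibody at 284 ± 10.3 bp, a difference of 82.8 bp. In each of these 4 comparisons the 3 PolII_S5P lists lay wholly to 1 side of the other 3, although the widest PolII_S5P median, 387 bp in animal 7, was only just below the narrowest MBD3 median of 388 bp in animal 9. The exact two-sided permutation test gave p = 0.1 in each, the smallest value that 3 lists against 3 allow (adjusted p = 0.1 over 4), so none could pass 0.05. The size of some differences changed with the setting: with a −log10 q-value of at least 5 that to H3K27ac was -457 bp and that to H3K4me1 -225 bp, with peaks within 500 bp joined that to H3K27ac was -436 bp, and without animal 5 that to MBD3 was -41 bp. With peaks joined, the PolII_S5P and MBD3 lists overlapped (exact permutation p = 0.2). They also overlapped with a −log10 q-value of at least 5, at a difference of -82 bp (exact permutation p = 0.2). The narrowest peak also differed between antibodies. In animals 5, 7 and 9 it measured 266, 254 and 244 bp for H3K27ac and 278, 302 and 292 bp for H3K4me1. For MBD3 it was 219, 216 and 215 bp and for TDG 206, 213 and 220 bp. How much of the differences in median width goes with this lower limit was not tested.

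**Figure D1:**
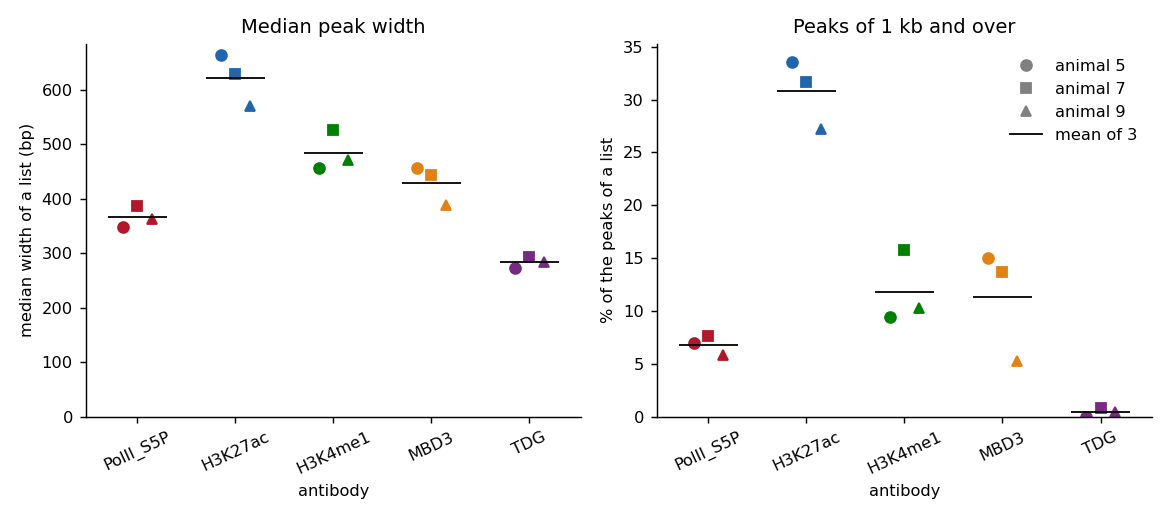
Each point is 1 peak list (circle animal 5, square animal 7, triangle animal 9), with the antibody on the x axis and a line at the mean of 3. On the left the y axis is the median peak width in bp, 349 to 387 for PolII_S5P, and on the right the percent of the list's peaks that were 1 kb or wider, 5.79% to 7.63% for PolII_S5P.

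Fold enrichment is the authors' value for each peak, a ratio of the pileup at the summit to the local background, and serves here only to rank peaks within a list. Its median was 3.82, 4.03 and 3.91 in animals 5, 7 and 9, and its maximum 78.3, 150 and 141. Wide peaks were only somewhat stronger, with a Spearman correlation between width and fold across the peaks of a list of 0.214, 0.274 and 0.195. Peaks are not independent replicates, and these coefficients only describe each list. Peaks under 300 bp had a median fold of 3.67, 3.82 and 3.69, and those of 2 kb and over of 6.39, 6.36 and 6.30.

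The 10 strongest sites were taken by mean rank of fold among the regions called in all 3 animals, so their folds describe the choice. The first, chr11:87313378-87314052 on build mm39, ranked first in every list. It was 675 bp wide and had a near neighbour at chr11:87317325-87317853, only 3.27 kb away, with folds of 47.5, 89.9 and 68.9 in animals 5, 7 and 9. A group of 3 strong sites stood on chromosome 12. They were chr12:54743403-54743962 (folds of 49.6, 48.5 and 64.9), chr12:54756880-54757524 (27.1, 36.9 and 31.4) and chr12:54784984-54785592 (20.5, 35.9 and 30.2), separated by 12.9 and 27.5 kb. The remaining 5 were chr19:5851861-5852881, chr4:131996907-131997974, chr6:49194318-49195808, chr11:101536154-101537208 and chr13:23765380-23766206.

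Of these 10 sites, 9 carried an H3K27ac peak in all 3 animals, 7 an MBD3 peak in all 3 and another 2 an MBD3 peak in 2 animals. None had an H3K4me1 or a TDG peak in any animal. Over all 3038 regions called in 3 animals, H3K27ac was called in all 3 at 64.2% and MBD3 at 52.8%, while H3K4me1 was called in at least 1 animal at 13.2% and TDG at 2.30%. The exception on H3K27ac was chr6:49194318-49195808, a 1491 bp region with folds of 27.8, 29.0 and 19.4 in animals 5, 7 and 9, on which none of the other 4 antibodies had a peak. It was called as 1 peak of 1444, 1479 and 1449 bp, nearly the same width in each animal.

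The 10 widest sites were a different set, and none was among the 10 strongest. The widest was chr13:120485985-120499276, 13292 bp long, called as 4, 1 and 2 peaks in animals 5, 7 and 9 with folds of 16.0, 13.3 and 21.0. None of the other antibodies had a peak there in any animal. The same held for 6 of the 10 widest sites in all, and for 20.9% of all 3038 regions called in 3 animals. Among the 6 were chr5:67252279-67258925 (6647 bp, folds of 14.8, 22.7 and 12.9) and chr14:48901945-48907361 (5417 bp, folds of 7.10, 11.8 and 10.3). That site on chromosome 14 was a single peak of 5304, 5409 and 5405 bp in the 3 lists. H3K27ac was called in all 3 animals at only 3 of the 10. These were chr14:64824746-64833346 (8601 bp), chr12:100171289-100177914 (6626 bp, with peaks of all 4 other antibodies) and chr19:5843170-5848342 (5173 bp). The last of these lay 3.52 kb from the strong site of chromosome 19, so that both were within 9.71 kb.

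Strong sites without H3K27ac were often wide as well. After the site on chromosome 6, the strongest regions with no H3K27ac peak in any animal were chr10:102862385-102864382 (1998 bp, folds of 17.7, 24.5 and 23.1), chr13:120426429-120429771 (3343 bp, folds of 17.3, 24.8 and 21.6), chr13:120556311-120559189 (2879 bp, folds of 20.1, 26.1 and 17.2) and chr6:83047266-83048388 (1123 bp, folds of 15.0, 30.8 and 12.7). No other antibody had a peak at any of them. The same was true of 635 of the 802 regions, among all 3038, that had no H3K27ac peak. The pair on chromosome 13 stood 56.2 kb before and 57.0 kb after the widest site of all. Among the 3038 regions called in all animals, the 100 strongest had H3K27ac in at least 1 animal in 63% and the 100 widest in 44%, against 73.6% of all 3038. Both sets had 15 regions in common, of which 12 had no H3K27ac peak and 11 no peak of any other antibody. Of all 3038, 20.9% had no peak of any other antibody.

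Overlap with the other antibodies was counted within an animal, with at least 1 bp in common. H3K27ac had a peak on 60.8%, 61.1% and 59.6% of PolII_S5P peaks in animals 5, 7 and 9 (mean 60.5 ± 0.829%, SD, n = 3), although the PolII_S5P lists differed in length by several fold. MBD3 followed with 53.8%, 53.0% and 44.9% (50.6 ± 4.93%) and H3K4me1 with 11.1%, 17.1% and 11.0% (13.1 ± 3.51%). TDG was on 28, 36 and 182 peaks, or 0.644%, 0.185% and 1.45%. The combination of H3K27ac with MBD3 and no H3K4me1 was the most frequent, at 43.2 ± 5.10% of PolII_S5P peaks. No peak of H3K27ac, H3K4me1 or MBD3 lay on 32.2 ± 1.67%, and H3K27ac alone lay on 8.30 ± 5.00%. These shares depend on how long the other lists were. With the H3K27ac, H3K4me1 and MBD3 lists of an animal shortened to equal length, H3K27ac was on 47.0 ± 10.4% and MBD3 on 38.4 ± 14.4%. The animals also differed more in the H3K27ac share in other settings. It was 63.1 ± 4.91% with PolII_S5P lists of equal length and 65.4 ± 4.64% with a −log10 q-value of at least 5. With the PolII_S5P summit inside the other peak it was 54.0 ± 3.88%.

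Peaks of 1 kb and over had H3K27ac and MBD3 peaks on them less often than narrower ones. H3K27ac was on 41.3 ± 13.1% of peaks of 1 kb and over and on 61.9 ± 1.52% of narrower ones (SD, n = 3 animals), a difference of -37.0, -10.9 and -13.9 percentage points in animals 5, 7 and 9. MBD3 was on 29.7 ± 10.1% of the wide and 52.1 ± 5.27% of the narrower peaks, again lower in 3 of 3. H3K4me1 was on 17.5 ± 6.60% and 12.8 ± 3.49%, with 1 animal lower, and the sign of its difference turned when the PolII_S5P summit had to lie inside the other peak. An exact sign-flip permutation test over the animals (two-sided) gave p = 0.25 for H3K27ac and MBD3, the smallest that 3 animals allow, and p = 0.5 for H3K4me1 (adjusted p = 0.375, 0.375 and 0.5). The mean difference was -34.6 points for H3K27ac and -37.4 for MBD3 with a −log10 q-value of at least 5, and -12.4 for H3K27ac without animal 5.

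Below 1 kb the animals differed. In animals 7 and 9 the share with H3K27ac was 53.4% and 56.1% of peaks under 300 bp, 62.2% and 61.1% of the next class up to 500 bp and 71.5% and 65.7% of peaks between 500 bp and 1 kb, and MBD3 was likewise most frequent in the last of these. In animal 5 H3K27ac was on 67.4%, 65.2% and 52.1% of the same classes.

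The relation to strength differed between animals. With each list split into 5 equal classes of fold, the share with H3K27ac was 76.3%, 66.1%, 59.7%, 56.3% and 45.6% from weakest to strongest in animal 5. In animal 7 it was 62.0%, 54.1%, 57.0%, 62.4% and 70.1%, and in animal 9 67.8%, 58.2%, 54.1%, 55.2% and 62.5%, so that the middle classes were lowest in both. Within the strongest class, the peaks of 1 kb and over had H3K27ac less often than the narrower ones in each animal, at 18.4% against 52.7% in animal 5, 48.6% against 75.4% in animal 7 and 44.9% against 65.6% in animal 9. Within the weakest class this was so in animal 5 (55.6% against 77.0%) and animal 9 (49.3% against 68.4%), while in animal 7 the shares were 61.9% and 62.0%. H3K4me1 was least frequent in the weakest class in every animal, at 4.02%, 10.4% and 2.99%.

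**Figure D2:**
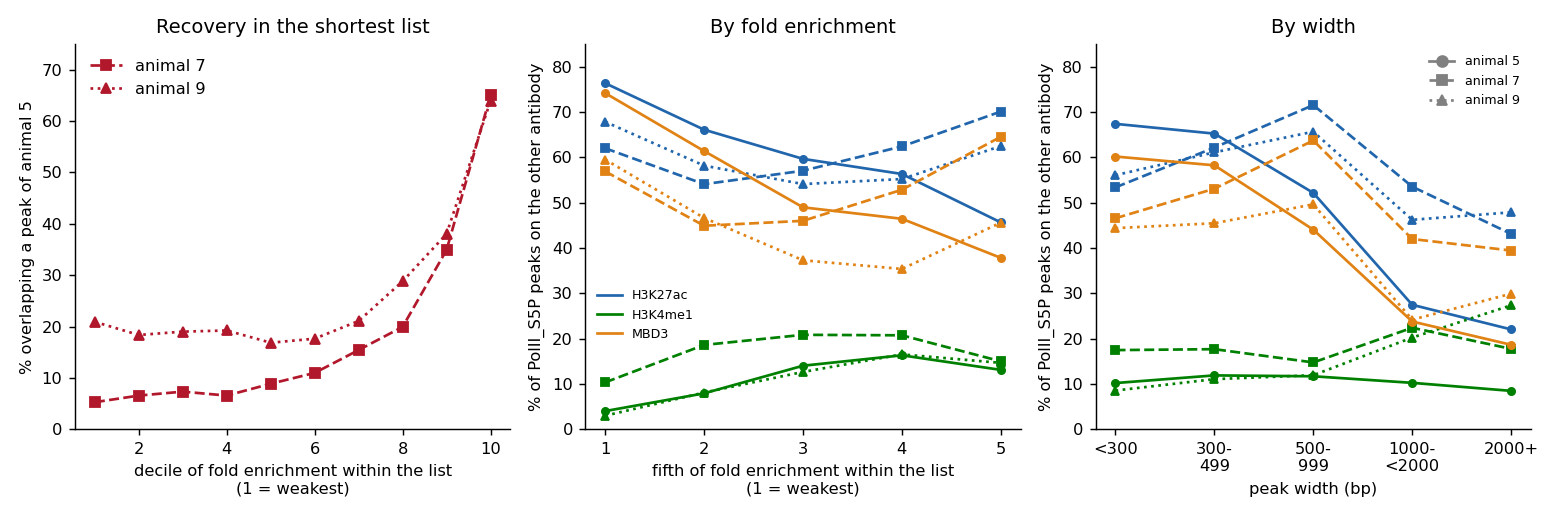
The left plot gives the percent of PolII_S5P peaks of animals 7 and 9 that overlapped a peak of animal 5, by decile of fold within the list. The middle and right plots give the percent of PolII_S5P peaks on an H3K27ac, H3K4me1 or MBD3 peak of the same animal by class of fold and by width in bp. Recovery is highest in the strongest decile, and H3K27ac in animal 5 declines with fold whereas in animals 7 and 9 it is lowest in the middle classes.

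Peaks of the 3 lists that overlapped were merged into 23062 regions. Of these, 3038 (13.2%) held a peak of all 3 animals, 6168 (26.7%) of 2 and 13856 (60.1%) of 1. The largest group by far was called in animal 7 alone with 10201 regions, followed by 5619 called in animals 7 and 9. Animal 9 alone had 3271 regions and animal 5 alone 384, while animals 5 and 7 shared 441 and animals 5 and 9 shared 108 that the third list did not hold. The pairwise shares differed with the list lengths. In animal 5, 88.3% of peaks overlapped one of animal 7 and 78.0% one of animal 9, whereas 18.1% of the peaks of animal 7 and 26.4% of those of animal 9 overlapped one of animal 5. With every list shortened to its 4351 strongest peaks, the 6 pairwise shares lay between 40.6% and 52.4%, and 1368 regions were then called in all 3, 1804 in 2 and 4908 in 1.

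Regions held by all 3 lists had a median width of 740 bp, against 524 bp for those in 2 and 308 bp for those in 1, but a merged region is as wide as the union of its peaks. The peaks themselves measured 375, 672 and 519 bp at the median in regions of 3 lists in animals 5, 7 and 9, and 272, 317 and 291 bp in regions of 1. Peaks in regions of all 3 had a median fold of 3.91, 5.80 and 4.46 in animals 5, 7 and 9, and peaks of 1 list alone 3.80, 3.68 and 3.86. Across the 3038 shared regions the folds of 2 animals had a Spearman correlation of 0.537 to 0.654. Where each list held a single peak (2555 regions), the 3 summits lay within a median of 51 bp of each other. The spread was 30 bp in regions under 500 bp and 235 bp in those of 1 kb and over.

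Peaks called in all animals had H3K27ac and MBD3 peaks on them more often than peaks called once. H3K27ac of the same animal was on 65.4 ± 3.54% of peaks in regions of 3 lists and on 42.7 ± 7.43% of peaks in 1 list alone (SD, n = 3), a difference of 22.7 ± 6.12 percentage points that was positive in all 3 animals. MBD3 was on 57.8 ± 8.55% and 28.5 ± 10.9%, a difference of 29.3 ± 9.14 points, also positive in 3 of 3. H3K4me1 went the other way, with 9.39 ± 1.81% and 19.3 ± 1.29%, a difference of -9.90 ± 0.693 points that was negative in 3 of 3. TDG was on 0.874 ± 0.434% and 0.675 ± 1.08%, with no common direction. The exact sign-flip permutation test gave p = 0.25, the smallest possible with 3 animals, for the first 3 antibodies and p = 0.75 for TDG (adjusted p = 0.333 and 0.75).

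These differences were smaller when list length was equalised. With each PolII_S5P list shortened to its 4351 strongest peaks, the difference between regions of 3 lists and of 1 was 7.69 ± 4.65 points for H3K27ac and 9.77 ± 4.35 for MBD3 (exact sign-flip permutation p = 0.25 each), and for H3K4me1 -5.95 ± 6.70 points, no longer in the same direction in all 3 animals (p = 0.5 in the exact test). With a −log10 q-value of at least 5, the H3K4me1 difference was -3.84 ± 1.75 points. That of H3K27ac was then 23.7 ± 19.6 points and that of MBD3 22.3 ± 20.5, so the animals differed widely in size. Without animal 7, the difference was -4.74 points for H3K4me1, 14.7 ± 16.1 for H3K27ac and 18.6 ± 17.6 for MBD3. For the last 2 antibodies the spread between the remaining animals was thus about as large as the difference.

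The steps between these classes were not even. In animals 7 and 9, peaks in regions of 2 lists had H3K27ac most often, at 74.3% and 68.6%, against 68.7% and 61.7% in regions of 3 lists and 50.8% and 41.1% in regions of 1. In animal 5 the share was 65.8% in regions of 3 lists, 47.4% in 2 and 36.2% in 1. The strongest region missing from 1 list was chr8:31639445-31640479 (1035 bp), called in animals 7 and 9 at folds of 17.7 and 17.0, ranks 50 and 30, with H3K27ac in all 3 animals. The strongest region of a single list, chr12:29576292-29576675, was called in animal 9 at a fold of 12.1, with both H3K27ac and MBD3 peaks in all 3 animals.

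**Figure D3:**
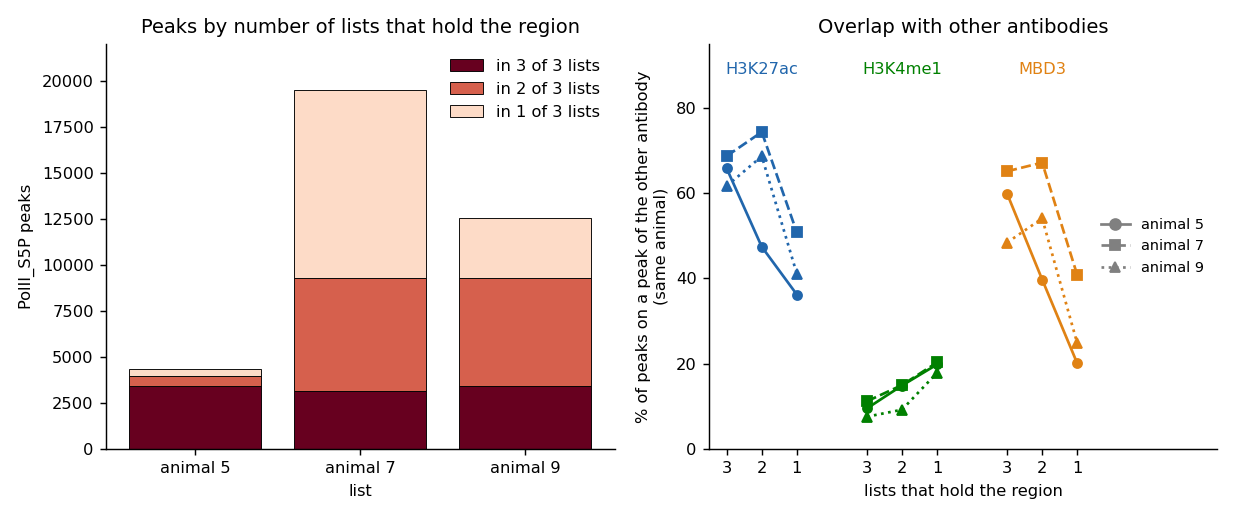
On the left, bars give the number of PolII_S5P peaks in each list by how many of the 3 lists held the region. On the right, points give the percent of these peaks on an H3K27ac, H3K4me1 or MBD3 peak of the same animal for regions of 3, 2 and 1 lists, joined by a line within each animal. H3K27ac and MBD3 are lower in regions of 1 list than of 3 in all 3 animals, and H3K4me1 is higher.

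The lists of animals 7 and 9 were the long ones, and 15981 (81.9%) and 9221 (73.6%) of their peaks overlapped none of animal 5. Compared with the peaks shared with animal 5, the extra peaks were narrower and weaker. Shared peaks measured 651 bp at the median and extra peaks 352 bp in animal 7, and 521 and 326 bp in animal 9. Their median folds were 5.56 and 3.92 in animal 7 and 4.48 and 3.73 in animal 9. The share recovered in animal 5 was highest among the strongest decile, at 65.0% and 63.9% in animals 7 and 9. In animal 7 it was 5.28% in the weakest decile and 15.4% in decile 7. In animal 9 it lay between 16.9% and 21.1% over deciles 1 to 7 and was higher only from decile 8 on, at 28.8%. It was higher in each wider class, from 4.29% and 10.9% of peaks under 300 bp to 88.5% and 90.6% of peaks of 2 kb and over.

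Of the extra peaks, 5.80% in animal 7 and 6.90% in animal 9 lay within 1 kb of a peak of animal 5. Within 5 kb lay 15.6% and 17.0%, and the median distance was 72.0 and 70.4 kb. The shares expected for randomly placed peaks were not computed. These values therefore do not show whether extra peaks lay near to or far from those of animal 5. Many extra peaks were called again in the other long list, namely 5780 (36.2%) of those of animal 7 and 5950 (64.5%) of those of animal 9. The extra peaks found in both long lists carried H3K27ac in 76.2% and 68.4% of cases in animals 7 and 9, and those found in 1 alone in 50.8% and 41.1%. MBD3 was on 68.5% and 53.4% of the extra peaks in both long lists and on 40.8% and 24.8% of those in 1 alone.

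Without that division, the shared and the extra peaks differed by at most 12.3 percentage points in the share with H3K27ac, H3K4me1 or MBD3. H3K27ac was on 66.2% of shared and 60.0% of extra peaks in animal 7, and on 62.0% and 58.7% in animal 9. MBD3 was on 63.1% and 50.8% in animal 7 and on 49.4% and 43.2% in animal 9, and H3K4me1 on 11.0% and 18.4% in animal 7 and on 7.56% and 12.2% in animal 9. The direction of the H3K27ac and MBD3 differences changed at a stricter q-value. The cut was made in all 15 lists, those of the other antibodies included. It also shortened the list of animal 5, which defines the extra peaks, from 4351 to 2667 peaks. When only peaks with a −log10 q-value of at least 5 were kept, the mean difference of shared minus extra peaks turned to -4.31 percentage points for H3K27ac and to -4.08 for MBD3, as means of 2 animals, for which no test was run.

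Along the chromosomes, the gap between adjacent PolII_S5P peaks had a median of 81.5, 14.9 and 27.7 kb in animals 5, 7 and 9, as the list lengths differed. Peaks nevertheless had close neighbours in every list. A neighbour lay within 1 kb of 24.3%, 30.2% and 25.4% of peaks and within 5 kb of 41.5%, 50.3% and 43.8%, while 31.7%, 8.80% and 14.6% stood more than 100 kb from any other. Each list was then shortened to its 4351 strongest peaks, the full length of the PolII_S5P list of animal 5. Distances were now taken between summits and not as gaps between peak edges. Of the PolII_S5P peaks, 40.4%, 29.4% and 36.7% had a neighbour within 5 kb. The corresponding shares were 10.2%, 13.6% and 20.4% for H3K27ac, 24.6%, 24.2% and 28.6% for H3K4me1 and 5.52%, 5.40% and 7.45% for MBD3. The PolII_S5P lists lay above all of them, although 29.4% in animal 7 was only just above the 28.6% of H3K4me1 in animal 9. Spacing was not recomputed with nearby peaks joined.

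The median distance between adjacent summits in these equal lists averaged 92.6 ± 16.4 kb for PolII_S5P and 139 ± 23.2 kb for H3K27ac (SD, n = 3 animals), a difference of -46.2 kb. MBD3 averaged 211 ± 9.31 kb, a difference of -119 kb, and H3K4me1 82.1 ± 10.2 kb, a difference of 10.4 kb. The exact permutation test (two-sided, 3 against 3) gave p = 0.1 for H3K27ac and MBD3, the smallest it allows, and p = 0.6 for H3K4me1 (adjusted p = 0.15, 0.15 and 0.6). The difference to H3K27ac was -29.7 kb without animal 5, and in lists of the 1000 strongest peaks -147 kb with overlapping groups (exact permutation p = 0.8), where that to MBD3 was -436 kb. With a −log10 q-value of at least 5, the differences to H3K27ac, H3K4me1 and MBD3 were -33.7, 34.0 and -173 kb (exact permutation p = 0.2, 0.1 and 0.1).

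Clusters were runs of at least 3 peaks with gaps of at most about 13 kb. There were 296, 1453 and 783 in animals 5, 7 and 9, which took in 37.0%, 47.3% and 39.0% of the peaks, and the largest had 34, 153 and 128 members. Peaks in clusters differed from the rest in what lay on them. H3K27ac was on 41.6 ± 7.84% of peaks in clusters and on 73.2 ± 3.95% of those outside (SD, n = 3 animals), a difference of -31.6 ± 11.1 percentage points. MBD3 was on 23.7 ± 6.29% and 69.0 ± 6.64%, a difference of -45.3 ± 5.45 points. H3K4me1 was on 21.0 ± 4.55% and 7.32 ± 1.78%, a difference of 13.7 ± 3.58 points. TDG was on 0.594 ± 0.484% and 0.874 ± 0.743%, a difference of -0.280 ± 0.316 points. Each direction held in 3 of 3 animals, with p = 0.25 in the exact sign-flip permutation test (adjusted p = 0.25), the smallest 3 animals allow. With a −log10 q-value of at least 5 the H3K4me1 difference was 8.81 points.

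Peaks in clusters were also wider, with a median of 419 ± 5.01 bp, against 338 ± 22.9 bp outside, and stood higher in their list by fold, at a median percentile of 58.2 ± 5.38, against 45.1 ± 2.02. Within classes of like width the difference in marks was seen in every class below 1 kb, with exceptions for H3K27ac and MBD3 among wider peaks. H3K27ac was lower in clusters in 13 of 14 comparisons of an animal and a width class, the exception being peaks of 2 kb and over in animal 9, where it was higher by 19.8 points. Its shares in clusters and outside were close in peaks of 2 kb and over in animal 7 (42.8% and 44.6%). They were also close in peaks of 1000 to under 2000 bp in animal 9 (45.9% and 47.1%). MBD3 was lower in 12 of 14, the exceptions being peaks of 2 kb and over in animal 7 (39.5% in clusters, 39.3% outside) and animal 9 (30.5% and 27.3%). H3K4me1 was higher in 14 of 14, with 1 class of under 20 peaks left out. In that class, peaks of 2 kb and over in animal 5, H3K4me1 was on 8% in clusters and 11.1% outside. In clusters of 10 or more members, H3K4me1 was on 32.3%, 41.3% and 32.4% of peaks in animals 5, 7 and 9. Over all clusters it was on 17.3%, 26.1% and 19.6%, which includes these large ones. H3K27ac was on 38.0%, 49.1% and 48.2% of peaks in the large clusters, against 32.8%, 47.9% and 44.2% over all clusters. MBD3 was on 16.1%, 21.5% and 12.4%, against 21.3%, 30.9% and 19.1%.

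**Figure D4:**
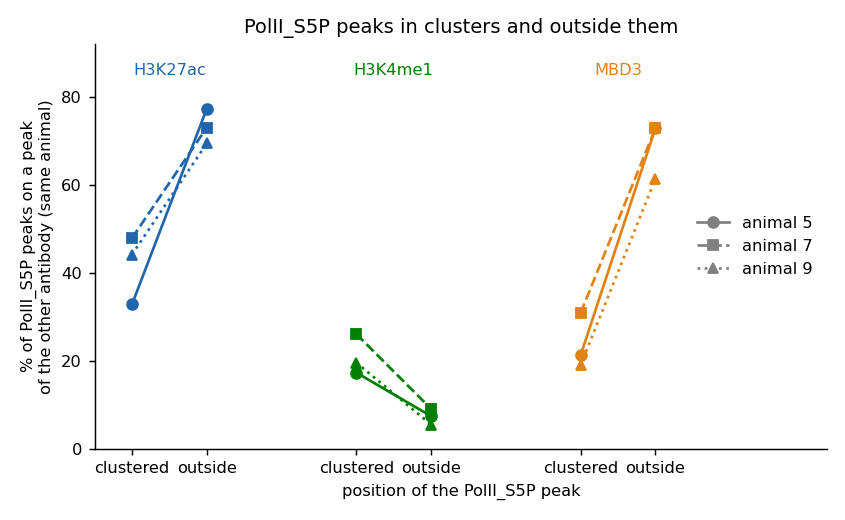
Each line joins, within 1 animal, the percent of PolII_S5P peaks in clusters (left point) and outside them (right point) that lay on an H3K27ac, H3K4me1 or MBD3 peak. H3K27ac and MBD3 are lower in clusters and H3K4me1 is higher in all 3 animals.

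Regions called in all 3 animals formed 161 clusters with 767 of the 3038 regions (25.2%). Both totals rest on the short list of animal 5: without it, 8664 regions were called in both remaining lists and formed 436 clusters. Most were small, 74 of 3 regions and 30 of 4, and 7 had 10 or more, of which 2 were on chromosome 2, 2 on chromosome 7 and 1 each on chromosomes 6, 9 and 16. The gap between neighbours in a cluster had a median of 1.52 kb. The largest, chr6:31072408-31196037, held 24 regions over 124 kb, and PolII_S5P was called there as 34, 70 and 78 peaks in animals 5, 7 and 9, covering 14.3%, 67.9% and 47.4% of it. Its median fold was 3.71, 4.47 and 4.21, at median percentiles of 45.4, 62.6 and 60.7 of the list. H3K4me1 had a peak on 22 of the 24 regions in at least 1 animal and H3K27ac on 17.

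The cluster chr9:111945377-112028148 had 19 regions over 82.8 kb, with H3K27ac on 18 and H3K4me1 on 17. At chr2:6595434-6672888, 14 regions over 77.5 kb had H3K27ac on 10, H3K4me1 on 12 and MBD3 on only 2. A pair of clusters on chromosome 7 had few regions with H3K27ac, which was on 73.6% of all 3038 regions in at least 1 animal, where H3K4me1 was on 13.2% and MBD3 on 69.7%. At chr7:59366903-59427234, 22 regions over 60.3 kb had H3K27ac on 5 and H3K4me1 on 4, with only 3, 2 and 4 H3K27ac peaks over the whole cluster in animals 5, 7 and 9. At chr7:59507176-59550145, 16 regions over 43.0 kb had H3K27ac on 5, H3K4me1 on 7 and MBD3 on 9, and their peaks were strong for the list, at median percentiles of 82.6, 86.6 and 94.7 by fold. TDG was on 4 regions of the first of these, including chr7:59418976-59419950, where it was called in 2 animals, and on none of the other 4 clusters.

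**Figure D5:**
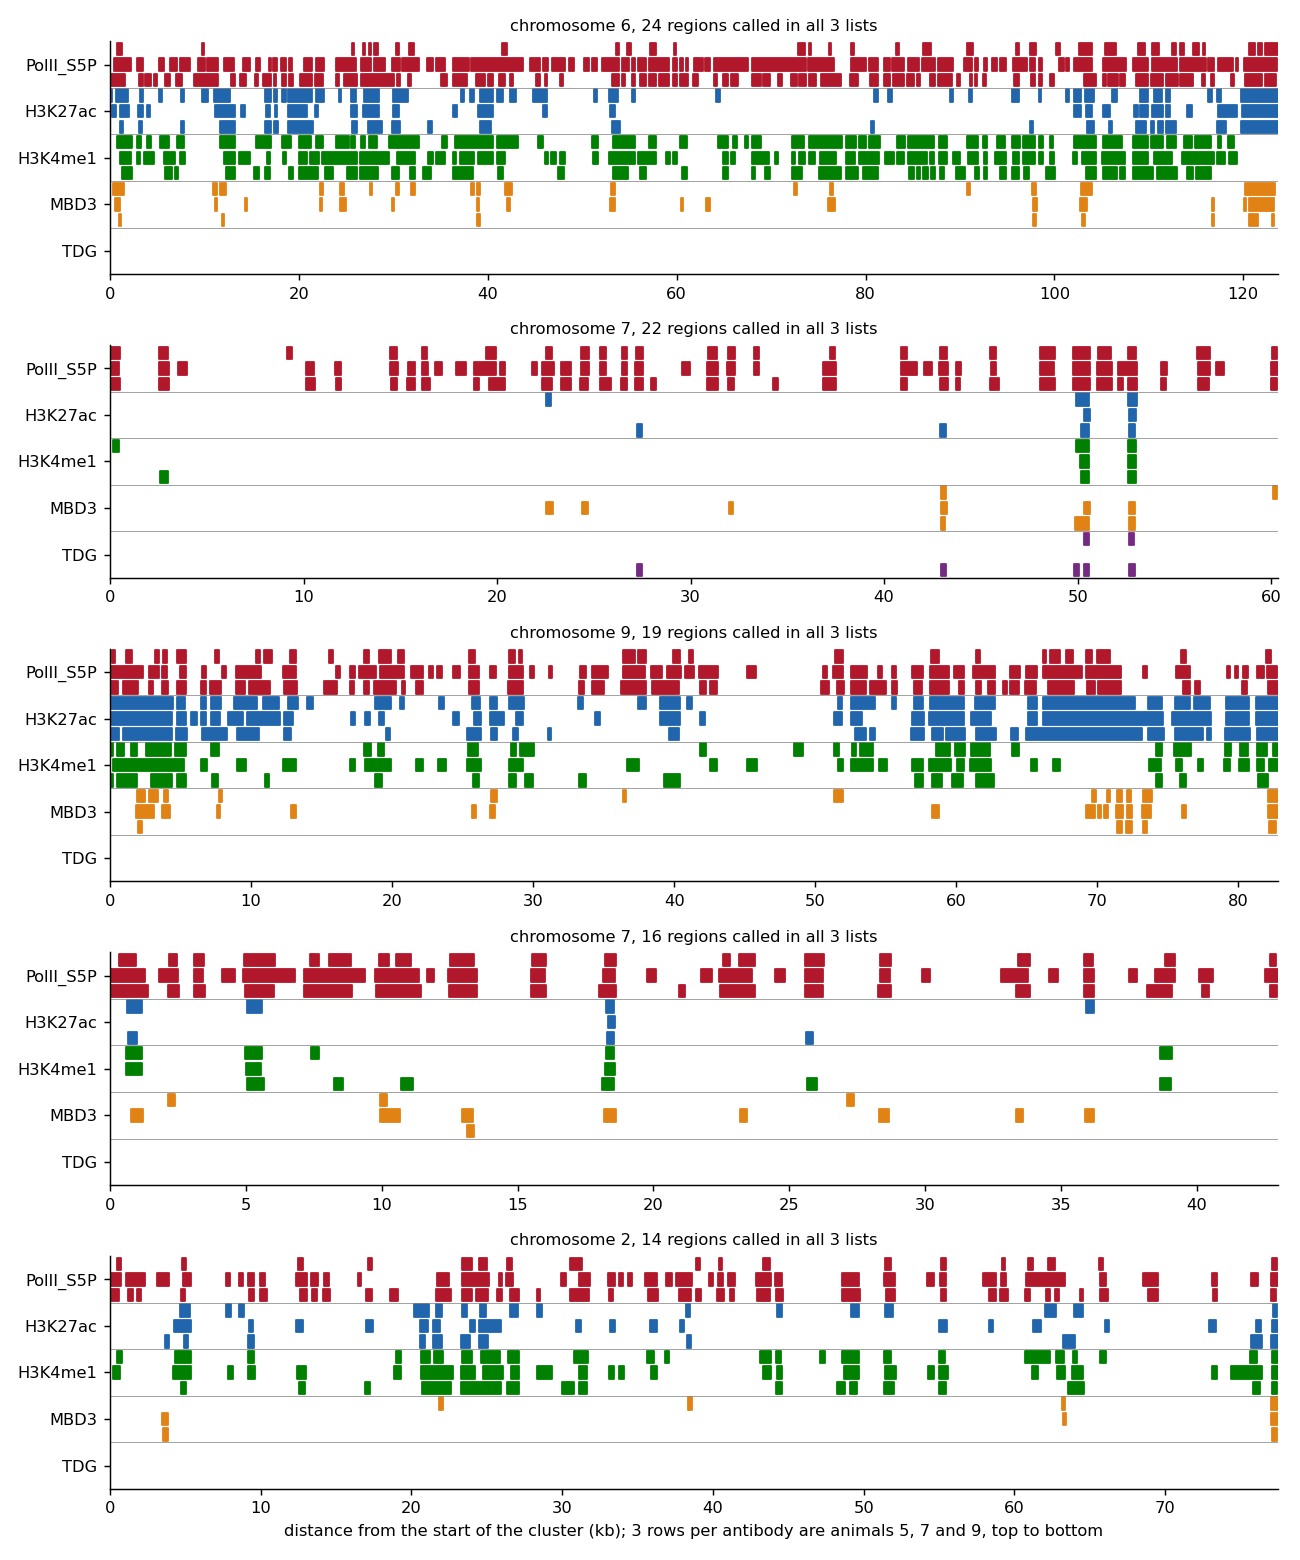
The map shows, for the 5 clusters with the most regions called in all 3 animals, every peak of each antibody as a box along the distance from the cluster's start in kb, with animals 5, 7 and 9 from top to bottom within an antibody. PolII_S5P peaks run through all 5 clusters, H3K27ac and H3K4me1 have many peaks in those on chromosomes 6, 9 and 2 and fewer in both on chromosome 7, where H3K27ac was on 5 of 22 and 5 of 16 regions.

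The mean density was 1.77, 7.93 and 5.09 PolII_S5P peaks per Mb in animals 5, 7 and 9, over 2460 Mb counted up to the last peak of each chromosome. It varied by about as much in each list, from 1.25 per Mb on chromosome 18 to 2.50 on chromosome 2 in animal 5, from 5.42 on chromosome 14 to 11.6 on chromosome 11 in animal 7, and from 3.49 on chromosome 14 to 6.89 on chromosome 11 in animal 9. The order of the 19 chromosomes was closest between animals 7 and 9, with a Spearman correlation of 0.947, and was 0.670 and 0.674 between animal 5 and these. With the number of protein-coding genes per Mb, counted in an annotation of build GRCm38.p6 and so only as an order of chromosomes, the correlation was 0.539, 0.719 and 0.619. These describe 19 chromosomes that share each library.

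In windows of 1 Mb, 53.0%, 78.0% and 73.6% of the 2468 windows held a PolII_S5P peak in animals 5, 7 and 9. The fullest had 63, 159 and 139 peaks, all 3 in the window at 6 to 7 Mb of chromosome 2. Counting only regions called in all 3 animals, the 25 fullest windows held 12.8% of the regions. They were led by 59 to 60 Mb of chromosome 7 with 42 regions, 6 to 7 Mb of chromosome 2 with 41, 31 to 32 Mb of chromosome 6 with 24, 111 to 112 Mb of chromosome 9 with 23 and 96 to 97 Mb of chromosome 3 with 19.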

How the data were processed

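ChIP-seq peak lists of 15 libraries (5 antibodies in 3 animals) were used as deposited, 1 list per library in the narrowPeak layout. The submitters' processing notes name MACS2 2.2.7.1, Picard 2.18.29, SAMtools 1.16.1, Trim Galore 0.6.7 and bcl2fastq 2.20, and build mm39. The aligner, the treatment of reads that map to several places and the control of the peak caller were not given in the sources used here. For each peak the authors deposited an integer score (not used), a −log10 q-value, a fold enrichment (a ratio to the local background), the summit offset in bp and a −log10 p-value, the last also not used. Read depth is unknown, so list lengths cannot be told apart from depth or antibody efficiency.

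Peaks on chromosomes 1 to 19 were analysed, with coordinates counted from 1. Peaks overlapped when they shared at least 1 bp, and overlapping PolII_S5P peaks of the 3 lists were merged into regions. Clusters had at least 3 members with gaps of at most 12.5 kb. The named sites are the 10 strongest and 10 widest regions called in all animals by mean rank or mean width, the strongest regions without H3K27ac, with TDG and in 2 or 1 lists, and the 5 largest clusters and fullest windows. Antibodies were compared by exact permutation of 3 lists against 3, and classes of peaks within animals by exact sign-flip permutation, both two-sided, and p-values were adjusted by Benjamini-Hochberg over the antibodies or measures of a comparison. The numbers 5, 7 and 9 name animals in the labels and pair the libraries. Python 3.11.15, numpy 2.4.6, pandas 2.3.3 and scipy 1.17.1 were used, and the functions were tested on simulated peaks.

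The regions of interest, classes and gene lists were chosen with earlier results of these data known. The splits by cluster and at 1 kb of width were added after their values were seen. Alternatives were stricter q-values applied to all lists, the summit as the criterion of overlap, joined peaks, lists of equal length, other cluster gaps and the omission of each animal. No annotation or genome on mm39 was used, so that genes were not named, planned gene lists were not run and no sequence is printed.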

Additional observations from a re-analysis of the deposited data

Results flagged for a closer look

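PolII_S5P peaks were also called outside chromosomes 1 to 19. Chromosome X held 54, 302 and 159 in animals 5, 7 and 9, of which 63.0%, 65.9% and 68.6% overlapped an H3K27ac peak of the same animal. Chromosome Y held 4, 5 and 6 in lists of animals labelled female, and 4, 4 and 5 of these overlapped an H3K27ac peak. The other antibodies had peaks on Y as well, for H3K27ac 15, 14 and 13. Input samples did not enter these counts, so no background level stands beside these counts, and their source was not tested.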

How the results depend on the processing

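Of 200 values recomputed under 15 other settings, 175 were labelled the same, 19 moved and 6 changed sign. The same meant an unchanged direction and side of the threshold, or a value within the spread of the main value. For counts of regions and clusters and for the fullest window it meant within 1.5 times of the main count. No tested value could cross the threshold with so few animals, so for these the label shows only a kept direction. A change from p = 0.1 to p = 0.8 counted as the same (exact permutation test, PolII_S5P against H3K27ac spacing in lists of 1000 strongest peaks). Size was kept less often: 29 of the 175 changed by over 1.5 times, the main ones given beside their results. With a −log10 q-value of at least 5 in all 15 lists, the shares of PolII_S5P peaks with H3K27ac, H3K4me1 and MBD3 were 65.4%, 4.81% and 57.6%. The lists of the other antibodies were shortened as well, so these shares do not describe strong PolII_S5P peaks alone. Regions in 3 lists and in 1 then numbered 1999 and 6678, and shared minus extra peaks gave -4.31 points for H3K27ac, -1.06 for H3K4me1, -4.08 for MBD3 and 0.192 for TDG. With the summit inside the other peak, the H3K27ac share was 54.0%, shared minus extra 0.267 for TDG, and peaks of 1 kb and over minus narrower ones -0.484 for H3K4me1. With PolII_S5P lists of equal length, the H3K27ac share was 63.1%, regions in 3, 2 and 1 lists 1368, 1804 and 4908, regions of 3 minus 1 lists -0.0758 for TDG, and shared minus extra -9.59 for H3K4me1 and 0.145 for TDG. With the other lists at equal length, H3K27ac was on 47.0% and MBD3 on 38.4%. In lists of 1000 strongest peaks, PolII_S5P minus H3K4me1 spacing was -53.8 kb. The cause of these changes was not tested.

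Leaving out 1 animal at a time gave 3236 to 8664 regions in every remaining list, the highest without animal 5, 194 to 436 clusters of such regions, also highest without animal 5, and -0.413 to 0.597 points for TDG between regions of all lists and of 1. With the animal as a replicate block, the pairing given by the labels, the width difference to H3K27ac stayed -255 bp. The exact sign-flip permutation test gave p = 0.25, the smallest that 3 animals allow. Pairing leaves the mean differences of widths and spacing as they are, and no p-value could cross the threshold, so no call could change. No comparison could pass 0.05 with 3 animals, and read depth, which limits the number of peaks called, is unknown.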
